A study of Mus musculus with 4 samples.

Results

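The cell cycle genes described here are 40 genes whose products copy DNA or carry a cell through mitosis, chosen by symbol from the 32285 genes measured. All 40 were found in each of 4 single-cell RNA libraries. Each library was made from hippocampus or sensory cortex, taken from wild-type (WT) mice given DOCA-salt or sham treatment. DOCA-salt is deoxycorticosterone acetate given with salt, a mouse model of mineralocorticoid-driven hypertension. By their titles, the libraries are hippocampus after DOCA-salt, hippocampus after sham, cortex after DOCA-salt and cortex after sham, 1 library each, and values below are given in that order unless a sentence names another. The labels give 3 mice per group without saying whether tissue was pooled, and strain, age, sex and length of treatment are not given in the sources used here. For the cortex DOCA-salt library and the hippocampus sham library the treatment field gives the opposite treatment from the title, so every direction between treatments below rests on the titles.

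In a dividing cell the MCM helicase is loaded and, with GINS, unwinds DNA in S phase, PCNA clamps the polymerases to the template, and ribonucleotide reductase and thymidylate synthase supply nucleotides. Mitotic genes are then switched on together. Cyclins A and B activate CDK1, condensins and topoisomerase II compact and untangle chromosomes, and kinetochores and Aurora kinases attach them to the spindle. Kinesins act on the spindle, and anillin is a scaffold of the cleavage furrow. Most cells of the adult brain do not divide. The known exceptions include progenitors of the hippocampal dentate gyrus and of the ventricular wall, precursors of oligodendrocytes, and microglia, the resident macrophages, which renew slowly. The members were read in 7 role groups, of which the S phase groups hold 11 genes and the mitotic groups 29.

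In quiescent cells many mitotic genes are held off through a promoter element called the CHR (letters TTTGAA, or TTCAAA on the other strand; TTCGAA is a variant), often with upstream CCAAT boxes (CCAAT, or ATTGG on the other strand), while S phase genes often carry E2F-type sites (here TTTCGCGC or GCGCGAAA, and TTCCCGC or GCGGGAA). Promoters of 34 members were found in the RefSeq table for GRCm38.p6, 36 promoters in all, each covering 250 bases before to 50 after the start. The CHR letters stood on either strand in 22 of the 36 (61.1%), against 17.9% of all 32851 promoters of that length, and CCAAT stood in 31 (86.1%) against 37.4%. The variant TTCGAA was present in 8.33% of member promoters and 1.56% of all. TTTCGCGC was in 4 of the 36 (11.1%, those of Cdk1, Mcm5, Mcm6 and Uhrf1) against 0.323% of all, and TTCCCGC in 3 (8.33%, Mcm3, Rrm1 and Uhrf1) against 4.6%. No motif contains another, and the matches are letters in a window, not measured binding. The 150-base stretches printed here run 5′ to 3′ in the gene's direction from 120 bases before to 30 after the start, with the motif letters in capitals. Top2a, Ube2c and Ccnb1 are shown as genes found together in the same few cells, Cenpf, Kif23 and Anln as mitotic genes that were also found elsewhere, and Mcm6 and Mcm3 as S phase genes:
Top2a (chr11:99024160-99024309, minus strand): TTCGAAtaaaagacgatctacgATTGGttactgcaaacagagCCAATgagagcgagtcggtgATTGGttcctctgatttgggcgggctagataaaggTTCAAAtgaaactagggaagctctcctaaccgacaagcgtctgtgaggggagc
Ube2c (chr2:164769809-164769958, plus strand): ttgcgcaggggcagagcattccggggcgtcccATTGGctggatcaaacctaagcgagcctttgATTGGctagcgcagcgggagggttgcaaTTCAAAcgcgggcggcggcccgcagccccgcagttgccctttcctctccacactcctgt
Ccnb1 (chr13:100786457-100786606, minus strand): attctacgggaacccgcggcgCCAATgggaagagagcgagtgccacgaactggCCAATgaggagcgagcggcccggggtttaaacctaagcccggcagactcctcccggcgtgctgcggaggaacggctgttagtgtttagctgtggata
Cenpf (chr1:189688057-189688206, minus strand): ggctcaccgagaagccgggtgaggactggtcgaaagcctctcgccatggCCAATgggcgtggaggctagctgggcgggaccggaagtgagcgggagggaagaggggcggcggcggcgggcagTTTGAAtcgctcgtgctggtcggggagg
Kif23 (chr9:61946770-61946919, minus strand): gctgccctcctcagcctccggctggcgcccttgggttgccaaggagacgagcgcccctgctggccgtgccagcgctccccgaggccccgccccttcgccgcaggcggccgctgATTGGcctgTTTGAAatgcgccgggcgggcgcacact
Anln (chr9:22389177-22389326, minus strand): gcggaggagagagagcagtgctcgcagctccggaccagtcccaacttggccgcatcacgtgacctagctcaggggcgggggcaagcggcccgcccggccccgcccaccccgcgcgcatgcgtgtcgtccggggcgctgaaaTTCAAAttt
Mcm6 (chr1:128359676-128359825, minus strand): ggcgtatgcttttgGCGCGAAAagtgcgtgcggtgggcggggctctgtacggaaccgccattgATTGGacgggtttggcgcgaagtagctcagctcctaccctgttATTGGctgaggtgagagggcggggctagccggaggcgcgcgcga
Mcm3 (chr1:20820283-20820432, minus strand): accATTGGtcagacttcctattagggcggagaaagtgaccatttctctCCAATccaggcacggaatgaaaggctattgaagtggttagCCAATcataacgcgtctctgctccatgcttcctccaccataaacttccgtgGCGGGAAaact

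Top2a carries 3 CCAAT boxes spaced before a CHR, and Ube2c carries 2 before a CHR. Ccnb1 has 2 CCAAT boxes, and no CHR letters stand in the stretch printed. Cenpf and Kif23 have a CHR just after the start behind 1 CCAAT box each. Anln has a CHR after the start and none of the other motifs in the stretch. Mcm6 and Mcm3 pair CCAAT boxes with an E2F-type site.

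The 4 libraries held 67745118, 70173987, 66824217 and 68152808 unique molecules (UMIs, each 1 captured RNA) in 11360, 11394, 11402 and 11159 cell barcodes, and 10761, 10657, 10755 and 10349 cells remained after filters on genes, mitochondrial RNA and doublets (42522 in all). Levels are UMIs of a gene per 1000000 UMIs of the cells named (CPM), and bracketed ranges are exact 95% intervals that cover counting error only. With 1 library per group there is no replicate check, so no test was made and a difference between groups is named by size. Cells were placed in 22 classes by marker genes. Each class with cells had 5 to 8 of its own markers among its 8 leading marker genes, no cell passed as a mature neuron, and 2381 cells (5.6%) stayed without a class. Choroid plexus epithelium made up 2, 246, 0 and 1 cells, and neutrophils 39, 4, 9 and 8. In the hippocampus sham library 29 barcodes under 5000 UMIs carried 5 or more mitotic members, against 1, 2 and 0 in hippocampus DOCA-salt, cortex DOCA-salt and cortex sham, and results that rest on them are given with and without them. Pairs of libraries shared 94 to 105 barcode sequences.

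The members summed to 101749 UMIs, from 85 for the checkpoint kinase Bub1 to 32918 for Anln, with a median of 740. Anln and Pcna together held 56.8% of them. Among the 14 classes with at least 50 cells, 38 of the 40 members were highest in the cells gated as immature neurons (young neurons, a gate that also took in cycling cells), against 13.3% of the 19709 genes compared. This class held 21, 53, 10 and 5 cells. The other 2 were Anln, highest in oligodendrocytes, where 6.69% of genes peak, and Mcm4, highest in Cajal-Retzius cells, early-born neurons of the outer cortical layer and hippocampus, where 14.3% peak. In 27 members the highest class stood at least 5-fold above the next.

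**Figure D1:**
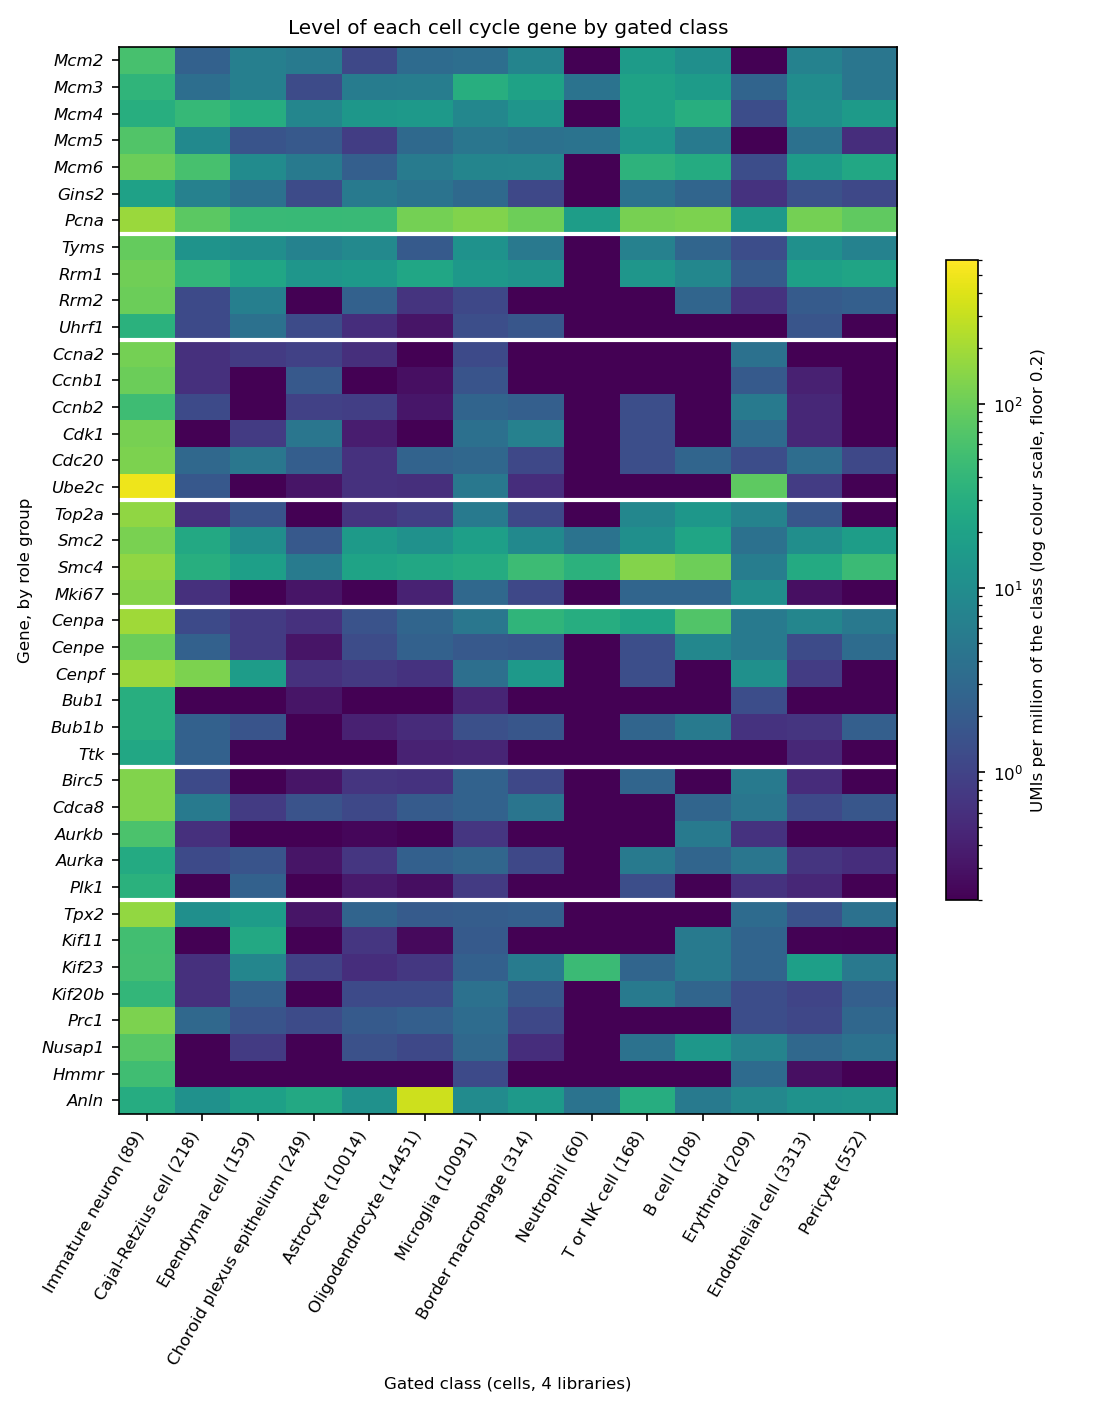
Level of the 40 members (rows, grouped by role) in each marker-gated class with at least 50 cells (columns), pooled over the 4 libraries, colour giving CPM on a log scale. The immature neuron column is the highest for 38 members, Anln stands out in oligodendrocytes at 330 CPM, and Cenpf has a second high value of 124 CPM in Cajal-Retzius cells.

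Among cyclin and proteolysis genes, Ube2c, the ubiquitin-conjugating enzyme of the anaphase-promoting complex, was at 605, 235, 877 and 531 CPM in immature neurons, on 109, 71, 115 and 27 UMIs. Ccna2 and Ccnb1, the cyclins A2 and B1 that drive CDK1, were at 161, 36.5, 175 and 236 CPM and at 128, 43.1, 198 and 78.7 CPM. In all 3 genes the hippocampus sham library, which had the most cells in this class, was the lowest. Cdk1 itself was at 178, 59.7, 130 and 177 CPM. Cdc20, which activates the anaphase-promoting complex, was at 233, 59.7, 145 and 59 CPM, so both sham libraries were low. Ccnb2 was at 88.8, 19.9, 76.3 and 19.7 CPM, the last value on 1 UMI.

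Chromosome and kinetochore genes had the same order of libraries at the low end. Top2a, the topoisomerase that untangles sister chromosomes, was at 183, 59.7, 267 and 354 CPM, and Mki67, which coats mitotic chromosomes, at 133, 53, 305 and 256 CPM. The kinetochore motor Cenpe was at 128, 6.63, 259 and 138 CPM, the checkpoint kinase Bub1 at 33.3, 3.31, 53.4 and 118 CPM. Bub1b, its partner in the checkpoint, was at 38.9, 9.94, 76.3 and 0 CPM, and the kinase Ttk at 33.3, 13.3, 30.5 and 39.4 CPM. The hippocampus sham library was lowest for each of these except Bub1b, which had no UMI in the 5 cells of cortex sham. Cenpa, the histone that marks centromeres and the best counted of its group, was at 217, 103, 320 and 295 CPM, 2.8-fold over B cells. Smc4, a condensin subunit and the best counted chromosome gene, was at 189, 49.7, 305 and 335 CPM, but only 1.18-fold above T and NK cells.

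Among passengers and kinases, Cdca8 (borealin) was at 189, 46.4, 229 and 177 CPM, Birc5 (survivin) at 161, 56.4, 236 and 177 CPM, and Aurkb at 61.1, 29.8, 107 and 138 CPM. Plk1 was at 55.5, 19.9, 38.1 and 19.7 CPM and Aurka at 66.6, 13.3, 15.3 and 0 CPM, both kinases of the spindle poles and highest in hippocampus DOCA-salt. The spindle group was similar: Prc1, which crosslinks the central spindle, was at 178, 33.1, 221 and 216 CPM, and Tpx2, an activator of Aurora A, at 278, 53, 259 and 157 CPM. Nusap1, Hmmr and Kif20b, which bind spindle microtubules, were at 105, 36.5, 107 and 118 CPM, at 66.6, 6.63, 114 and 98.4 CPM and at 66.6, 13.3, 45.8 and 98.4 CPM. Every one of these spindle genes was lowest in hippocampus sham.

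Of the 11 S phase genes, 4 stood at least 5-fold above the next class. They were the helicase subunit Mcm5 at 133, 26.5, 61 and 98.4 CPM, thymidylate synthase Tyms at 105, 69.6, 145 and 19.7 CPM, the reductase subunit Rrm2 at 94.4, 43.1, 160 and 275 CPM, and Uhrf1, which brings the methylation enzyme to new DNA, at 66.6, 9.94, 45.8 and 19.7 CPM. Hippocampus sham was the lowest library for Mcm5, Rrm2 and Uhrf1 and cortex sham for Tyms, while cortex sham was the highest for Rrm2. Rrm1, the large reductase subunit and the best counted of its group, was at 150, 63, 175 and 39.4 CPM, 2.77-fold over Cajal-Retzius cells. Pcna was at 222, 139, 252 and 78.7 CPM, only 1.37-fold over microglia. The neural stem or progenitor gate held 8, 5, 0 and 4 cells, too few to rank. Ube2c was at 322, 296 and 973 CPM there in hippocampus DOCA-salt, hippocampus sham and cortex sham.

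These levels came from few cells. In the 89 immature neurons, 19 (21.3%) had UMIs of at least 3 of the 28 mitotic members other than Anln, and 11 (12.4%, 6.33 to 21) had at least 10. The cells with at least 10 numbered 4 of 21, 2 of 53, 3 of 10 and 2 of 5, so their share was lowest in hippocampus sham. Cells with at least 10 that stayed without a class numbered 2, 18, 3 and 0, the most in hippocampus sham. Which class they belong to was not tested. The low levels of hippocampus sham given above therefore cover gated cells only. Without cells that had 3 or more, 7 members were highest in immature neurons, against 12.8% of genes, and 6 stood 5-fold above the next class in any class. Top2a, Mki67, Ccna2, Cdc20 and Prc1 are among the genes that cells were chosen by here, so their drop in the rest is given as a description. T and NK cells then led for 6 members (4.58% of genes), B cells for 5 (4.64%) and Cajal-Retzius cells for 5 (14.2%). The shares count genes with at least 20 UMIs in these cells, a minimum not applied to the members. Some leads rested on very low levels: Mki67 and Plk1 at 1.44 CPM each in T and NK cells, Bub1b and Aurkb at 5.81 CPM each in B cells. Others stood higher, with Smc4 at 133 CPM in T and NK cells and Cenpa at 63.9 CPM in B cells.

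Over all classes, 119, 157, 65 and 70 cells carried at least 3 mitotic members, 411 cells or 0.967% of all, and they held 1.85% of all UMIs. At least 10 were found in 18, 28, 11 and 8 cells (65, or 0.153%). Among barcodes of at least 5000 UMIs, 25, 24, 12 and 12 carried 5 or more, so without shallow barcodes the hippocampus libraries had nearly equal numbers. By class, 8 of 17 neural progenitors (47.1%, 23 to 72.2) and both granulocyte precursors had at least 10, as did 18 of 10091 microglia (0.178%, 0.106 to 0.282). Microglia gave 5, 4, 5 and 4 such cells. Of 14451 oligodendrocytes 0 did (a floor of 3 cells allows a share of up to 0.0208%, and the exact upper limit is 0.0255%, both for cells with such UMIs), and of 10014 astrocytes 1 did, in hippocampus sham. A further 23 such cells had no class, 18 of them in hippocampus sham.

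**Figure D2:**
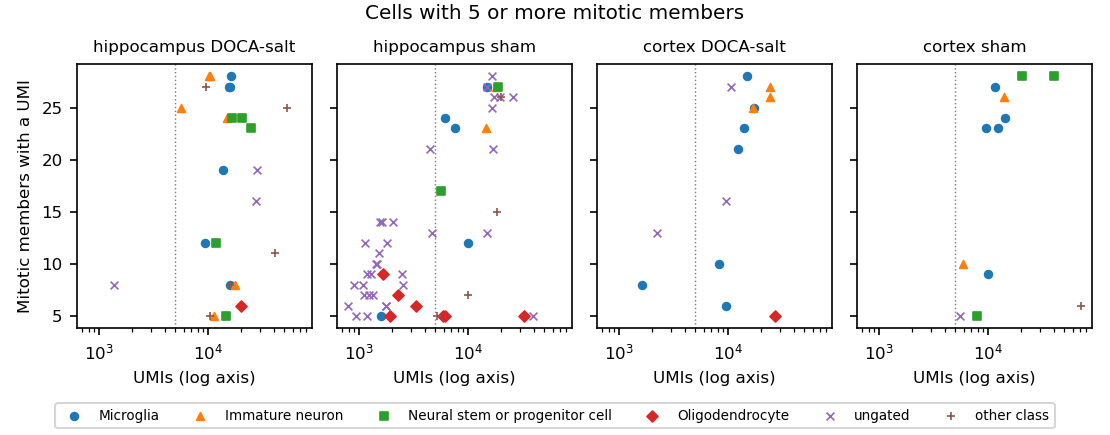
Cells with 5 or more mitotic members, 1 panel per library, by total UMIs of the cell (log axis) and number of the 28 mitotic members with a UMI. In the hippocampus sham panel 29 points lie under 5000 UMIs, against 1, 2 and 0 in the hippocampus DOCA-salt, cortex DOCA-salt and cortex sham panels.

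In droplet data free RNA adds single UMIs to cells that do not express a gene, and deeper cells show more genes. Oligodendrocytes, which do not divide, had 3 or more mitotic members in 108 of 14451 cells (0.747%, 0.613 to 0.902), and microglia in 74 of 10091 (0.733%, 0.576 to 0.92); depths differed between the classes and libraries. In microglia 27, 13, 24 and 10 cells had at least 3 mitotic members, 0.993%, 0.543%, 0.986% and 0.393%, so the share was higher in the DOCA-salt library of each tissue. After every cell was thinned to 2000 UMIs and shallower cells were left out, 6, 4, 5 and 5 cells did, 0.24%, 0.183%, 0.222% and 0.212%. Thinned oligodendrocytes had 3, 6, 0 and 1 such cells, 0.0862%, 0.127%, 0% and 0.0352%, so the microglial share was the higher one in each library, with exact intervals that overlapped. Median depth was 6174, 5454, 6066 and 5869 UMIs in microglia and 6449, 6451, 5570 and 5820 UMIs in oligodendrocytes. At equal depth DOCA-salt and sham microglia differed by 2 cells in hippocampus and by 0 in cortex. So few cells were left that these counts cannot place the unthinned difference, and the part of depth in it was not tested. Unthinned, the intervals of the microglial shares were 0.655 to 1.44%, 0.289 to 0.927%, 0.633 to 1.46% and 0.189 to 0.722%.

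The share of a member's RNA that lay in such cells varied widely, also within role groups. Counting a cell when it held 3 or more of the other 39 members, 24 of the 40 members had at least 50% of their UMIs in such cells, but Anln and Pcna are common enough that 7329 cells (17.2%) qualified. Counting only the other mitotic members, 15 of 40 passed 50%, all of them mitotic. The highest were Hmmr at 86.1%, Bub1 at 85.9%, Mki67 at 83.9%, Ccnb1 at 81.7%, Ccna2 at 79.9%, Ube2c at 79.5%, Aurkb at 77% and Birc5 at 74.7%. The median over the 28 mitotic members was 50.2%. The S phase members ran lower, from 3.12% for Pcna to 44.2% for Rrm2, with a median of 10.7% and 0 of 11 past 50%. Cells were counted by mitotic members here, so the lower S phase shares also hold cells in S phase that carry few mitotic RNAs. Among mitotic members, Anln at 1.18%, Smc4 at 7.3%, Smc2 at 8.89%, Kif20b at 21.2% and Kif23 at 23.1% were found mostly outside. The CHR letters stood in 21 of 26 promoters (80.8%) of mitotic members and in 1 of 10 (10%) of S phase members. Among mitotic members the letters were about as common past 50% (11 of 14, 78.6%) as under it (10 of 12, 83.3%).

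**Figure D3:**
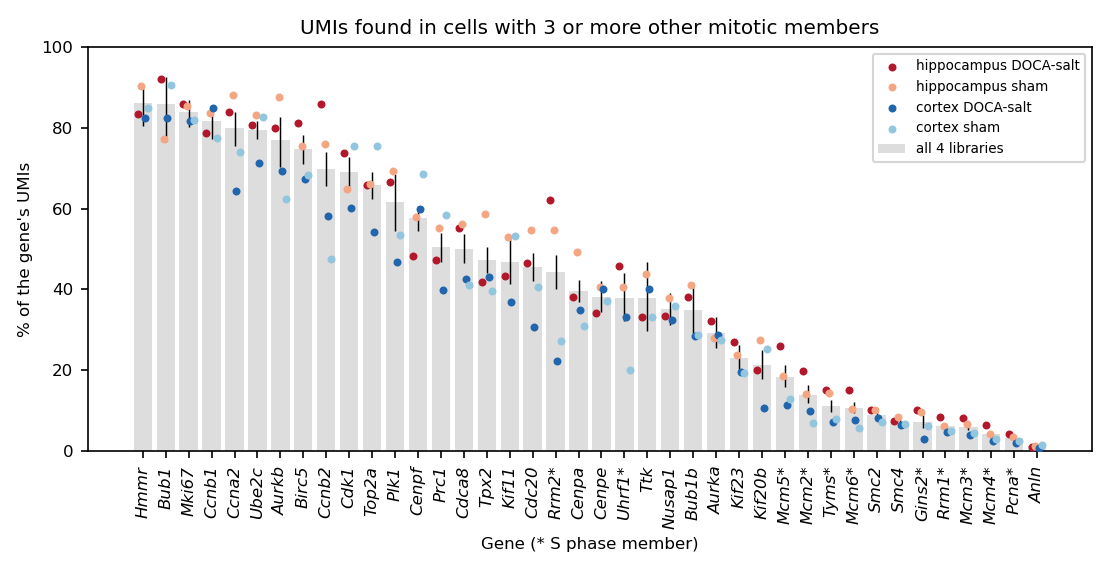
Percent of each member's UMIs found in cells with 3 or more other mitotic members. Grey bars pool the 4 libraries, with exact binomial 95% intervals, points are coloured by library, and an asterisk marks S phase genes. Hmmr is highest at 86.1%, the highest cyclin is Ccnb1 at 81.7% and the highest passenger Aurkb at 77%, and S phase genes sit at or under 44.2%, with Anln lowest at 1.18%.

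Cells with at least 10 mitotic members also carried genes that had not been used to choose them. In the 18 such microglia, against 10017 microglia with fewer than 3, 10 of 11 S phase members were at least 2-fold higher with an interval that leaves out 1, against 6.17% of the 15567 genes compared. Uhrf1 was at 58.1 CPM in the 18 cells and 1 CPM in the rest, Rrm2 at 53.6 and 0.933 CPM, and Tyms at 139 and 11.3 CPM. Pcna was at 201 CPM in the 18 cells and 130 CPM in the rest, a ratio of 1.55 (1.13 to 2.07), the smallest of the 11. Anln was at 139 CPM, on 31 UMIs in 14 of the 18 cells, and 9.02 CPM in the rest. In 19 progenitors and immature neurons with at least 10, against 75 with fewer than 3, Rrm2 was at 312 CPM on 99 UMIs in the 19 cells and 16.5 CPM on 8 UMIs in the 75, Tyms at 239 and 26.8 CPM and Pcna at 410 and 123 CPM. Mcm6 was closer, at 154 and 92.6 CPM (1.67, 1.09 to 2.56).

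Anln encodes anillin, the scaffold of the cleavage furrow, which is also a known part of septin filaments in central myelin. In oligodendrocytes it was at 286, 378, 285 and 341 CPM, on 6982, 12576, 4691 and 6511 UMIs in 2385, 3583, 1749 and 1963 cells. Both DOCA-salt libraries were below the sham library of their tissue, by ratios of 0.756 (0.735 to 0.779) in hippocampus and 0.835 (0.804 to 0.867) in cortex, both short of the 1.5-fold used to name a difference. The 8 markers of the oligodendrocyte gate summed to 19594, 21777, 18896 and 22388 CPM in the same cells, so they were lower in both DOCA-salt libraries too. Per 1000 of those marker UMIs Anln had 14.6, 17.4, 15.1 and 15.2. In microglia, astrocytes, endothelial cells and choroid plexus Anln had 9.79 to 16.4 per 1000 of the same markers. In microglia, for example, Anln was at 7.34, 16.9, 6.97 and 8.15 CPM beside marker sums of 750, 1360, 607 and 626 CPM. T and NK cells (29.7 CPM) and immature neurons (28.6 CPM) were not set against the markers.

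Cenpf, a large kinetochore protein, was high in Cajal-Retzius cells, which do not divide. It was at 128, 141, 60.6 and 72.6 CPM, on 87, 104, 11 and 4 UMIs in 54 of 89, 62 of 106, 7 of 17 and 3 of 6 cells. Top2a had 1 UMI in all 218 of these cells, Cenpa 2 and Kif11 none. Other mitotic members had RNA there at levels below Cenpf, with Smc2 at 25.4 CPM, Tpx2 at 10.9, Cdca8 at 5.44 and Prc1 at 3.02 CPM. At least 2 mitotic members were found in 34, 33, 6 and 3 of the Cajal-Retzius cells. Without the 14 cells with 3 or more mitotic members Cenpf was still at 119 CPM there, against 11.7 CPM in border macrophages, the next class. In microglia it was at 0.746 CPM when such cells were left out, so Cenpf in Cajal-Retzius cells was not carried by cells with the set.

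The MCM helicase genes were uneven. Mcm6 was at 57.2 and 61.1 CPM in hippocampal Cajal-Retzius cells of the DOCA-salt and sham libraries, and Mcm4 at 20.5 and 62.4 CPM. Mcm3 was at 29.5, 24.8, 32 and 34.5 CPM in microglia, against 6.23, 6.26, 5.34 and 5.55 CPM in oligodendrocytes and 6.71, 5.46, 5.74 and 5.29 CPM in astrocytes, and the ranges of the 4 libraries did not overlap between microglia and either other class. Tyms was lower in oligodendrocytes than in astrocytes or microglia in every library. It was at 2.17, 1.87, 2.06 and 1.68 CPM in oligodendrocytes, 8.54, 8.97, 8.73 and 8.66 CPM in astrocytes, and 13, 11.2, 10.7 and 12.4 CPM in microglia. Pcna was at 114, 129, 140 and 141 CPM in microglia, at 120, 112, 116 and 103 CPM in oligodendrocytes, and at 49.2, 46, 51.8 and 37.1 CPM in astrocytes, where every library was lower.

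Motors of the spindle also had places of their own. Kif23, the kinesin of the central spindle, was at 15.9, 21.5, 17.5 and 19 CPM in endothelial cells, in 64, 68, 42 and 56 cells, and 242 of its 266 endothelial UMIs lay in cells with fewer than 3 mitotic members. Over the 4 libraries it was at 0.569 CPM in astrocytes and at 46.9 CPM (23.4 to 83.9) in neutrophils, there on 11 UMIs in 60 cells. Kif11, the bipolar kinesin that separates spindle poles, was at 11 and 35.6 CPM in hippocampal ependymal cells, the ciliated lining of the ventricles, on 6 and 21 UMIs in 4 and 13 cells of the DOCA-salt and sham libraries. Ube2c was at 71.2, 77.1, 129 and 47.5 CPM in erythroid cells, in 13, 10, 17 and 6 cells. Smc4 was at 106, 111, 152 and 259 CPM in T and NK cells, against 28.1, 28.8, 25.2 and 29.2 CPM in microglia.

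**Figure D4:**
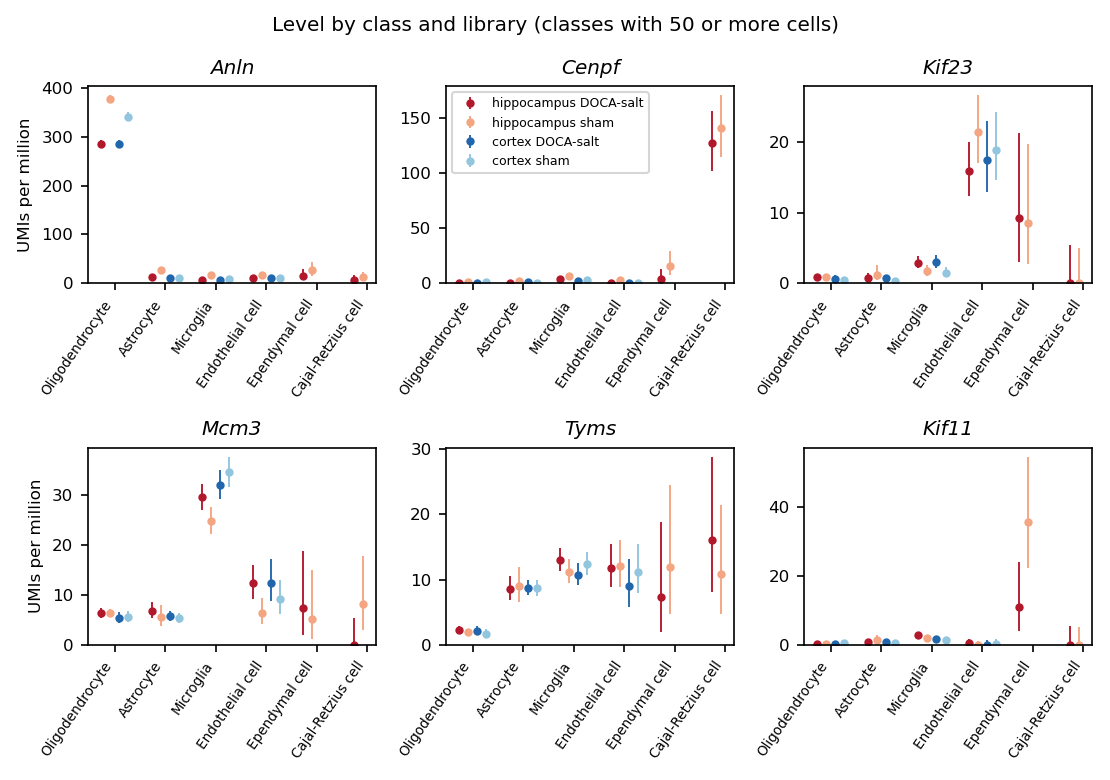
Level in CPM of Anln, Cenpf, Kif23, Mcm3, Tyms and Kif11 in 6 classes, 1 point per library that has at least 50 cells of the class, with its exact Poisson 95% interval, DOCA-salt left of sham in each tissue. The 4 libraries keep the same leading class for Anln (285 to 378 CPM in oligodendrocytes) and for Mcm3 (24.8 to 34.5 CPM in microglia).

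The comparison of treatments asks whether the members differ between DOCA-salt and sham brains. A ratio was counted as a difference at 1.5-fold with at least 20 UMIs over both libraries. Shares of all genes are given for each comparison on its own. The share of all genes past 1.5-fold in both tissues was not counted. Over all hippocampal cells 0 of the 40 members were higher after DOCA-salt and 4 lower, against 14.2% of 18577 genes higher and 5.22% lower, and the median ratio of the members was 0.985, against 1.07 over all genes. The 4 were Cenpf at 4 CPM after DOCA-salt and 6.6 after sham (ratio 0.607), Plk1 at 0.709 and 1.15 CPM (0.616, 0.416 to 0.904), Hmmr at 0.662 and 1.12 CPM (0.591, 0.394 to 0.876), and Anln at 118 and 206 CPM (0.572, 0.556 to 0.589). Without the 29 low-UMI barcodes of the sham library, 2 were lower. Those barcodes held 45 of the 430 Cenpf UMIs of that library, 11 of 73 for Hmmr, 5 of 75 for Plk1 and 9 of 13398 for Anln. With every cell given equal weight, 15 were lower, a setting that gives shallow barcodes such as these 29 more weight. The hippocampus libraries held 3735 oligodendrocytes after DOCA-salt and 4877 after sham, and the part of that difference in the Anln ratio was not tested.

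Over all cortical cells 2 members were higher and 0 lower, against 9.14% and 3.09% of 18181 genes, with a median of 1.01 for members and 1.02 for all genes. Ube2c was at 4.9 CPM after DOCA-salt and 3.13 after sham, a ratio of 1.57 (1.3 to 1.88), and Ccnb1 at 0.974 and 0.642 CPM, a ratio of 1.52 whose interval (1 to 2.32) touched 1. In both tissues the share of members that was higher lay below that of all genes. The best counted members of the other groups were close to 1 in both tissues: Pcna had ratios of 1 in hippocampus and 1.08 in cortex, Rrm1 0.971 and 1.06, Smc4 1.08 and 0.953, and Cenpa 0.889 and 1.15. Cdca8 was at 0.737 and 0.859.

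Within microglia, 6 of 37 members with enough UMIs were higher and 5 lower after DOCA-salt in hippocampus (background 6.16% and 6.75%), and 3 of 38 were higher and 3 lower in cortex (8.22% and 3.2%). Summed, the S phase members were at 205 CPM after DOCA-salt and 203 after sham in hippocampus and at 234 and 226 CPM in cortex, and the mitotic members at 114 and 112 CPM and at 107 and 111 CPM, so neither sum differed by 1.5-fold. Mki67 was lower in both tissues. It had 25 UMIs in 9 cells after DOCA-salt and 50 UMIs in 7 cells after sham in hippocampus, 1.48 and 3.84 CPM, a ratio of 0.385 (0.228 to 0.634). In cortex it had 39 and 62 UMIs, 2.64 and 4.14 CPM, a ratio of 0.637 (0.415 to 0.966). That ratio turned to the other direction when cells with 3 or more mitotic members were left out. Mki67 is one of the genes used to choose those cells. Only 17 of its UMIs were left in microglia of all 4 libraries, so the turn gives no direction for the rest. In hippocampus the DOCA-salt library thus had more cells with the gene and fewer of its UMIs.

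**Figure D5:**
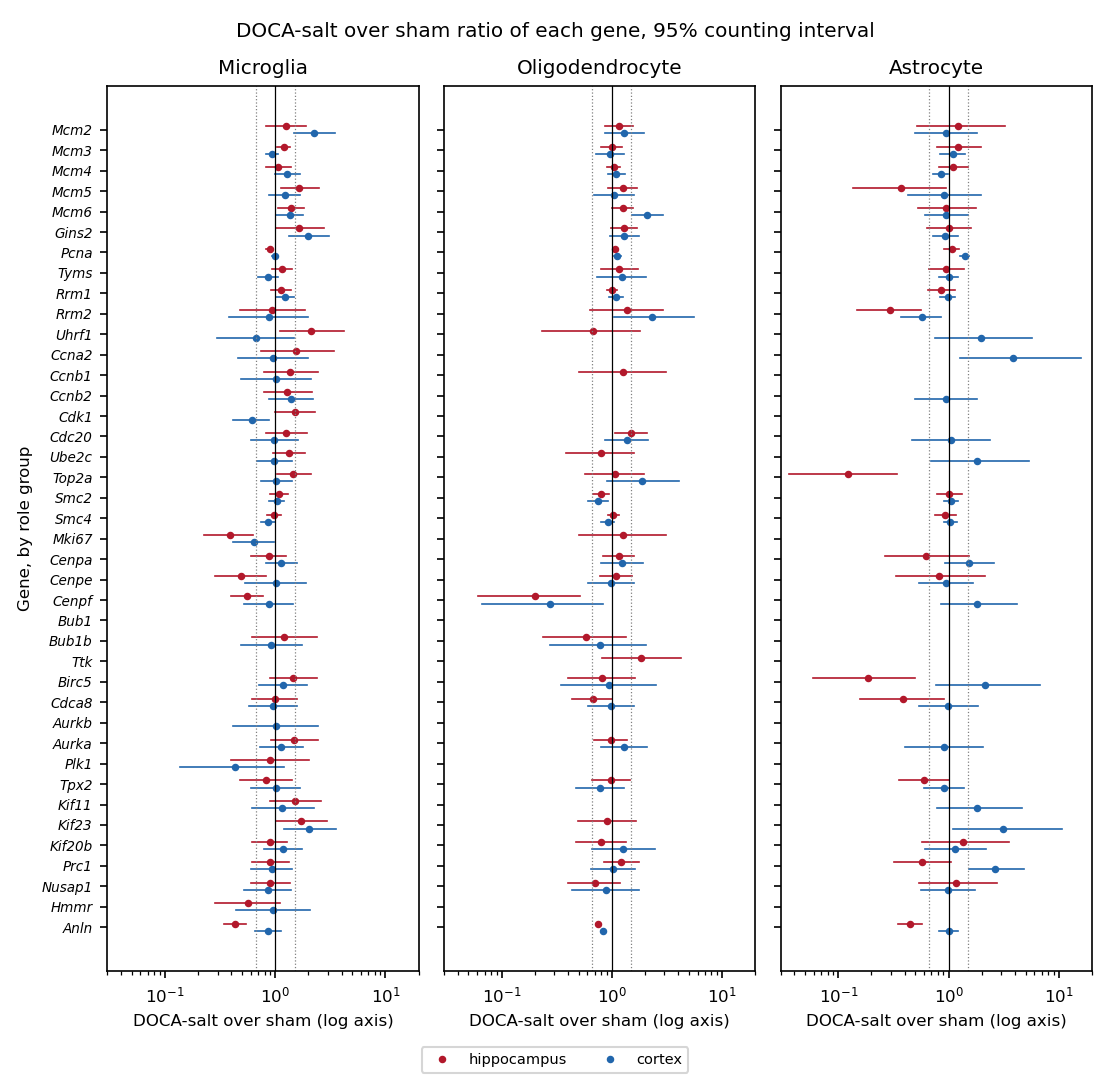
Ratio of DOCA-salt over sham (log axis) for members with at least 20 UMIs in microglia, oligodendrocytes and astrocytes, hippocampus in red and cortex in blue, with exact 95% intervals and a line at 1. Most points lie near 1 in microglia (medians 1.15 in hippocampus and 1 in cortex), and hippocampal astrocytes have 9 points past 1.5-fold on the lower side.

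A pair of genes were higher in microglia of both tissues after DOCA-salt, a count with no share of all genes to set beside it. Kif23 had 49 and 22 UMIs in hippocampus, 2.9 CPM after DOCA-salt and 1.69 after sham (ratio 1.71, 1.02 to 2.98), and 44 and 22 UMIs in cortex, 2.98 and 1.47 CPM (2.03, 1.19 to 3.55). Gins2, a subunit of the replication helicase, had 54 and 25 UMIs in hippocampus, 3.2 and 1.92 CPM (1.66, 1.02 to 2.79), and 71 and 36 in cortex, 4.8 and 2.41 CPM (2, 1.32 to 3.07). In hippocampus both ratios were under 1 after thinning, and Kif23 there was near 1 without cells with 3 or more mitotic members. The thinned Kif23 ratio rests on few molecules, with a UMI in 5 cells after DOCA-salt and 7 after sham. Past 2-fold in a single tissue were Mcm2 in cortex, at 5.14 CPM after DOCA-salt and 2.27 after sham (2.26, 1.49 to 3.5), and Uhrf1 in hippocampus, at 2.25 and 1.08 CPM (2.09, 1.11 to 4.17). In the other tissue Mcm2 had a ratio of 1.25 (0.831 to 1.9) and Uhrf1 of 0.675 (0.297 to 1.48), and the difference between tissues was not tested. Cenpe, at 0.488 in hippocampus, and Anln, at 0.434 (7.34 CPM after DOCA-salt, 16.9 after sham), were lower. The direction of Cenpe turned after thinning, and Anln stands beside the oligodendrocyte marker sums given above.

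In oligodendrocytes 1 of 32 members was higher and 2 lower in hippocampus (background 10.9% and 3.75%), and 3 of 26 were higher and 1 lower in cortex (8.84% and 3.98%). Cenpf was lower in both tissues. It had 5 UMIs after DOCA-salt and 34 after sham in hippocampus, 0.205 and 1.02 CPM, a ratio of 0.2 (0.0612 to 0.515), and 4 and 17 UMIs in cortex, 0.243 and 0.891 CPM, a ratio of 0.273 (0.0667 to 0.836). Both ratios rest on few molecules. Mcm6 in cortex was at 7.04 CPM after DOCA-salt and 3.35 after sham (2.1, 1.53 to 2.9), and 1.26 (1.01 to 1.57) in hippocampus. Rrm2 in cortex was at 1.21 and 0.524 CPM, on 20 and 10 UMIs (2.32, 1.04 to 5.54), and its direction turned after thinning.

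In astrocytes the members past 1.5-fold were mostly lower after DOCA-salt in hippocampus and mostly higher in cortex, a difference between tissues that was not tested. In hippocampus 0 of 22 members were higher and 9 lower after DOCA-salt (background 6.73% and 5.87%), and in cortex 9 of 30 were higher and 1 lower (8.97% and 3.07%). The interval left out 1 for 6 of the 9 in hippocampus and for 3 of the 9 and the 1 lower in cortex, against 7.23% and 7.99% of all genes in either direction. The hippocampal values rested on 5 UMIs of Top2a after DOCA-salt and 20 after sham, in 5 and 4 cells (ratio 0.123, 0.0361 to 0.338), and on 6 and 16 UMIs of Birc5 (0.185, 0.0591 to 0.496). The 1 astrocyte-gated cell with 10 or more mitotic members was in the hippocampus sham library, and without cells with 3 or more the log2 ratio of Top2a moved to -0.61 from -3.02 and that of Birc5 to -1.02 from -2.44. Rrm2 was lower in both tissues, with 16 UMIs after DOCA-salt and 27 after sham in hippocampus (0.292, 0.147 to 0.561) and 40 and 64 in cortex (0.57, 0.374 to 0.86). In cortex Prc1 had 52 and 18 UMIs (2.64, 1.52 to 4.79), Ccna2 17 and 4 (3.88, 1.26 to 15.8), and Kif23 17 and 5 (3.1, 1.1 to 10.8), all higher after DOCA-salt. With doublets kept the log2 ratio of Kif23 was 0.89, against 1.63. The summed mitotic members were at 63.9 CPM after DOCA-salt and 91.2 after sham in hippocampus and at 54.1 and 47.7 CPM in cortex. The hippocampal sum, the count of 9 lower and the Rrm2 ratio include the 1 sham cell with 10 or more mitotic members. That cell had UMIs of 26 mitotic and 11 S phase members, in a class with 468 mitotic UMIs. Its part in these values was not tested. Top2a and Birc5 are among the genes used to choose the cells left out above.

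In endothelial cells 1 of 15 members was higher and 3 lower in hippocampus (background 9.64% and 4.76%), and 1 of 14 higher and 1 lower in cortex (7.44% and 4.97%). Mcm3 in hippocampus was at 12.3 CPM after DOCA-salt and 6.29 after sham, on 54 and 24 UMIs (1.95, 1.19 to 3.3). In hippocampal Cajal-Retzius cells 0 of 7 were higher and 1 lower (9.96% and 7.58%), which was Mcm4 at 20.5 CPM after DOCA-salt and 62.4 after sham (0.329, 0.167 to 0.609). Its direction turned after thinning. Cenpf in the same cells was close to even, with a ratio of 0.904 (0.672 to 1.21). In hippocampal ependymal cells 1 of 5 was higher and 2 lower (12.7% and 10.5%), among them Kif11 at 0.309 (0.102 to 0.793). In pericytes, the contractile cells of capillaries, 2 of 4 were higher and 0 lower in hippocampus (12.9% and 10.4%) and 1 of 2 higher and 0 lower in cortex (12% and 10.4%). Rrm1 in hippocampus had 18 UMIs after DOCA-salt and 3 after sham (3.44, 1 to 18.2), and Pcna in cortex 57 and 19 (1.88).

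The sham libraries compare tissues. Over all cells 20 of the 40 members were at least 1.5-fold higher in hippocampus than in cortex and 0 lower, against 14.6% of 18293 genes higher and 15.1% lower. For 19 of the 40 the interval also left out 1, against 26.1% of all genes, counted in either direction. The median ratio of the members was 1.48, against 0.976 over all genes. Ccnb1 was at 2.33 CPM in hippocampus and 0.642 in cortex, on 152 and 40 UMIs, a ratio of 3.63 (2.55 to 5.28), Ube2c at 6.17 and 3.13 CPM (1.97, 1.66 to 2.35), and Anln at 206 and 112 CPM (1.84, 1.78 to 1.89). Further ratios were 2.39 for Cenpf, 2.08 for Ccna2, 2.02 for Birc5 and 1.83 for Mcm6. Pcna (1.18), Rrm1 (1.18) and Smc4 (1.01) did not reach 1.5-fold. Mitotic and S phase members lay on both sides of that limit. The mitotic members Top2a (3.54 CPM in hippocampus, 3.07 in cortex), Mki67 (2.39 and 2.05) and Bub1 (0.337 in both) stayed under it. The S phase member Mcm2, at 4.31 and 2.5 CPM, passed it, as Mcm6 did. Without cells with 3 or more mitotic members, 8 were higher and 1 lower, and the direction of Ccna2, Aurkb and Ccnb2 turned. These genes are among those used to choose the cells left out, so their turn is given as a description. Immature neurons (53 in hippocampus, 5 in cortex) and the low-UMI barcodes (29 and 0) differed between the same libraries. Immature neurons with at least 10 mitotic members numbered 2 in hippocampus and 2 in cortex. Cells without a class that had at least 10 numbered 18 and 0, and part of them are low-UMI barcodes. The part of each in the contrast was not tested. Without the low-UMI barcodes 14 members were higher and 0 lower.

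Within classes the tissue contrast was smaller in microglia, where 4 of 37 members were higher and 2 lower (background 10.2% and 6.73%). Cenpf was at 6.84 CPM in hippocampus and 2.41 in cortex there (2.84, 1.91 to 4.31) and Cdk1 at 2.77 and 5.21 CPM (0.531, 0.347 to 0.798). The direction of Cdk1 turned without cells with 3 or more mitotic members, which Cdk1 itself helped to choose. In oligodendrocytes 3 of 31 were higher and 1 lower (4.78% and 8.23%), with Mcm6 at 5.21 and 3.35 CPM (1.55, 1.16 to 2.1). In astrocytes 17 of 26 were higher and 0 lower (12.9% and 6.85%), 9 of the 17 with intervals that leave out 1 (13.3% of all genes in either direction), and Cdca8 was at 2.73 and 1 CPM (2.72, 1.29 to 5.56). The 932 hippocampal sham astrocytes included the 1 cell with 10 or more mitotic members, and without cells with 3 or more the direction of Cdca8, Cenpf and Rrm2 turned in this class. Cdca8 and Cenpf are among the genes used to choose the cells left out.

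Other cell cycle genes were read from 5 lists of 96 genes that exclude the members. Over all hippocampal cells after DOCA-salt, 14.2% of all genes were higher and 5.22% lower. There G1 cyclins, kinases and E2F genes had 1 of 17 higher and 0 lower, and CDK inhibitors 2 of 9 higher and 1 lower. DREAM and MuvB genes, only part of which repress the cycle in quiescent cells, had 1 of 10 higher and 0 lower. Other replication genes had 2 of 22 higher and 0 lower, and other mitotic genes 1 of 37 higher and 2 lower. In cortex, where 9.14% of all genes were higher and 3.09% lower, these were 1, 0, 0, 1 and 2 higher, and 0 lower in every list. The 1 gene past 2-fold in both tissues within a class was Cdk6, a kinase of G1 that opens the way to S phase, in endothelial cells. How many of all genes passed 2-fold in both tissues was not counted. In hippocampus and cortex Cdk6 was as follows. It had 132 UMIs after DOCA-salt and 55 after sham in hippocampus, 30 and 14.4 CPM (2.08, 1.51 to 2.9), and 69 and 36 UMIs in cortex, 23.7 and 10.9 CPM (2.18, 1.44 to 3.36). Between sham tissues, where 14.6% of all genes were higher in hippocampus and 15.1% lower, 14 of 37 other mitotic genes were higher and 1 lower, while replication genes had 1 higher and 2 lower and G1 genes 1 higher and 4 lower.

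Some members share exons with other genes in the GENCODE annotation of GRCm38. An exon of 9 members overlaps another gene, 8 of them on the opposite strand, among them Ube2c with Tnnc2, Cdc20 with Elovl1, Ccna2 with Exosc9 and Gins2 with Gse1. The counting strand is not given in the sources used here, so reads of such neighbours cannot be told apart. The values of Ube2c in erythroid cells and of Gins2 in microglia carry that limit.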

How the data were processed

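RNA of single cells was captured in droplets with a SeekOne 3' kit, per the labels' protocols. The deposited files hold whole-number UMI counts per gene and barcode, not normalized. Seurat, Subread, STAR and fastp are named in the submitters' processing notes, with no versions, as is build GRCm38. A barcode in the deposited counts entered if it had 300 or more genes and no more than 20% of its UMIs were mitochondrial, and Scrublet in scanpy 1.11.5 (expected rate 0.08) removed 480, 574, 599 and 737 doublets (hippocampus after DOCA-salt and sham, then cortex after DOCA-salt and sham). A cell joined 1 of 22 classes when at least 3 of that class's markers (175 genes in all) exceeded the library mean and led the next class by 2. The gating rule was chosen after the data were seen. Of the gated cells, 1514 (3.77%) sat at that minimum. UMIs were summed per class and library and compared as CPM and ratios with exact 95% intervals (scipy 1.17.1), which cover counting error only and do not stand for mice. With 1 library per group no test was possible. Ratios were checked on simulated counts. The 40 members and all lists were chosen with earlier results of these data known. Named members were the best counted of each role group, those 5-fold above the next class, and those past 1.5-fold in both tissues or 2-fold in 1. Promoters are from RefSeq.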

Additional observations from a re-analysis of the deposited data

Results flagged for a closer look

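In the hippocampus sham library 29 of 4033 barcodes under 5000 UMIs (0.719%) had UMIs of 5 or more mitotic members, against 1 of 4084 in hippocampus DOCA-salt, 2 of 4441 in cortex DOCA-salt and 0 of 3814 in cortex sham. They drew attention because barcodes this shallow rarely carry so many members, and 24 of them had no class. Their depth ranged from 787 to 4686 UMIs with a median of 1561. They held 421 mitotic and 32 S phase member UMIs. Cenpf was at 867 CPM in the 29 and 3.43 CPM in the other shallow barcodes of that library, Top2a at 771 and 2.29 CPM, and Ube2c at 732 and 1.31 CPM, while Pcna was at 135 and 103 CPM and Mcm4 had no UMI in the 29. Among genes looked up after the barcodes were found, Hmgb2 was at 2467 and 129 CPM. The smooth muscle gene Acta2 was at 1022 and 140 CPM and had a UMI in 22 of the 29, and Elane, Camp and Snap25 had 0. What these barcodes are was not tested.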

How the results depend on the processing

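Depth, the cells that carry the mitotic set, and the 1 library per group limit these values. No paired analysis was possible because each group has 1 library. Under the alternatives, 68 values of the summary counts stayed within 1.5 times and 42 did not; for named genes 451 stayed within their interval, 57 moved and 16 changed direction. In hippocampus, DOCA-salt over sham, members higher numbered 3 after thinning (0 as reported), and members lower 0 at 2-fold, 15 with equal weight per cell and 2 without the low-UMI barcodes (4 as reported). In cortex members higher numbered 0 at 2-fold, 1 without blood immune cells, 4 without cells with 3 or more mitotic members, 4 with equal weight and 1 without low-UMI barcodes (2 as reported), and lower 3 after thinning, 1 without the 3-member cells and 1 with doublets kept (0 as reported). In sham libraries, without the 3-member cells, 8 were higher in hippocampus and 1 lower. Cells with 3 or more mitotic members, in hippocampus after DOCA-salt and sham and then in cortex after DOCA-salt and sham, became 593, 660, 471 and 457 at 2 or more, 26, 53, 14 and 12 at 5 or more, 18, 28, 11 and 8 at 10 or more, 254, 365, 150 and 180 with Anln counted, and 24, 29, 12 and 10 after thinning. Members highest in Cajal-Retzius cells numbered 2 after thinning, 5 without the 3-member cells and 2 with equal weight, in microglia 2 and 1 under the last pair of settings, and in immature neurons 7 without the 3-member cells. Members with at least 50% of UMIs beside others numbered 15 with 3 other mitotic members and 15 with 5 other members.

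Some log2 ratios of DOCA-salt over sham changed direction. Without the 3-member cells they were 0.71 for Cdca8 in hippocampal astrocytes and 0.29 for Mki67 in cortical microglia. After thinning they were 0.27 for Cdk1 in cortical microglia, 0.51 for Cenpe, -0.51 for Gins2 and -0.68 for Kif23 in hippocampal microglia, 0.22 for Mcm4 in Cajal-Retzius cells and -0.33 for Rrm2 in cortical oligodendrocytes. For sham hippocampus over cortex, the log2 ratios without the 3-member cells were -0.75 for Aurkb, -0.05 for Ccna2 and -0.47 for Ccnb2 in all cells, -0.69 for Cdca8, -0.21 for Cenpf and -0.16 for Rrm2 in astrocytes, and 0.39 for Cdk1 in microglia, and -0.34 for Rrm2 in astrocytes after thinning. Except for Rrm2, the genes named without the 3-member cells are among those used to choose these cells. Thinning and leaving out cells leave fewer UMIs, so a turn can rest on few molecules, and beyond that the cause was not tested. The alternatives that count 10 or more members, that use mitotic members alone, and that leave out low-UMI barcodes or rank classes without the 3-member cells were chosen after seeing the data.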
